A study of Mus musculus with 48 samples.

Results

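The liver genes described here take part in the response to glucagon and cyclic AMP (cAMP) and were chosen by symbol as Gcgr, Pde4b, Sik1, Crtc2, Crem, Ppargc1a and Creb3l3. All 7 were found among the 24453 genes with exon values and the 20771 genes with intron values. The livers came from C57BL/6 wild-type mice and from Nono-/- mice, which lack the nuclear RNA-binding protein NONO. Both genotypes were 14 weeks old, were kept in 12 h of light and 12 h of dark, and had food only in the dark for 1 week before collection. Livers were taken every 2 h from ZT0 to ZT22 (ZT0 is lights on), at 12 times, as 1 pool of 2 mice per genotype and time. Each pool gave 1 library of total RNA and 1 of nuclear RNA, which makes 48 libraries in 4 groups of 12. No promoter or cell type limits the loss of NONO in the labels, and pooling hides differences between the 2 mice of a pool.

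Glucagon is released in fasting and binds its receptor GCGR on hepatocytes, which raises cAMP and activates protein kinase A. The kinase phosphorylates CREB and silences the salt-inducible kinases, so that the coactivator CRTC2 enters the nucleus and CREB target genes are transcribed, among them those of glucose production. The phosphodiesterase PDE4B ends the signal by breaking down cAMP, SIK1 ends it by phosphorylating CRTC2, and the repressor isoform ICER, made from Crem, ends it at the DNA. PGC-1alpha, the product of Ppargc1a, is a coactivator that CREB induces in fasting, and CREB3L3 (CREBH) is a membrane-bound factor of liver and intestine that acts on genes of fasting lipid metabolism. Sik1, Crem and Ppargc1a are therefore both parts and targets of the pathway.

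Gcgr lies on the plus strand of chr11:120530727-120538984, Sik1 on the minus strand of chr17:31844250-31855792 and Crtc2 on the plus strand of chr3:90254281-90264125 (mm10, from the deposited tables). Ppargc1a lies on the minus strand of chr5:51454249-51553921 and Creb3l3 on the minus strand of chr10:81084333-81098872. Pde4b lies on the plus strand of chromosome 4, from 102587558 to 102607262 in the exon table and from 102570060 to 102607262 in the intron table. For Pde4b, and also for Crem, the exon and intron values come from different transcript models. Of the 7 members 0 overlapped another gene of the tables.

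RefSeq start windows of 300 bases (GRCm38.p6, 250 before to 50 after the start site) were used for 4 of the 7 genes, with 1 entry for Gcgr, 4 for Pde4b, 1 for Ppargc1a and 2 for Creb3l3. Windows of Sik1, Crtc2 and Crem were not used here, so the motif counts below do not cover these genes. Those of Gcgr and of the Creb3l3 start used in the tables are printed because both genes fell together in nuclear RNA, that of the Pde4b start of the exon table because Pde4b rose there, and that of Ppargc1a because it holds a half-site of the cAMP response element, in capitals. Each is written 5′ to 3′ on the strand of the gene.
Gcgr chr11:120530477-120530776 plus strand: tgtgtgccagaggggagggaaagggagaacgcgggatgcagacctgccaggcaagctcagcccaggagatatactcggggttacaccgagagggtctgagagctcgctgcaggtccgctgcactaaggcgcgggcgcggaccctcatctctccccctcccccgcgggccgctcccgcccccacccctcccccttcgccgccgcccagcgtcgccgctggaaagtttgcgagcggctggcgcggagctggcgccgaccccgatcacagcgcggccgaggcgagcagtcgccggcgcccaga
Creb3l3 chr10:81098823-81099122 minus strand: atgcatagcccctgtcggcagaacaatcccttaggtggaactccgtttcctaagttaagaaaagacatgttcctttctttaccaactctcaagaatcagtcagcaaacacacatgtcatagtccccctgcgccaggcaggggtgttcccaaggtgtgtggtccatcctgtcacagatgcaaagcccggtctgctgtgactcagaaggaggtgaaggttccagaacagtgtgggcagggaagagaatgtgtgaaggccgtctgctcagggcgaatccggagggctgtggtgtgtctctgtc
Pde4b chr4:102587308-102587607 plus strand: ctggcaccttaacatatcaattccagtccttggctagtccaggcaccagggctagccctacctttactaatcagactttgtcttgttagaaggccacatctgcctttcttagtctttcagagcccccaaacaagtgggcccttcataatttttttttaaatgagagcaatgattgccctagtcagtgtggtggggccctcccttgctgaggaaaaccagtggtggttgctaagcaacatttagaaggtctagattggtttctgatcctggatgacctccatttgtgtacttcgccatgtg
Ppargc1a chr5:51567676-51567975 minus strand: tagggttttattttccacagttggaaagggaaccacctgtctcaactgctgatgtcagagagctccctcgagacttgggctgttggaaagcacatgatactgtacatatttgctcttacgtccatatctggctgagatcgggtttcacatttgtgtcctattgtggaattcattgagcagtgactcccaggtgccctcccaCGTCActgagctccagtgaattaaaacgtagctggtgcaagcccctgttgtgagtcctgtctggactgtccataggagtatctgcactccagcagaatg
The full palindromic element TGACGTCA was in 0 of the 8 windows of these 4 genes, against 1.79% of 32851 RefSeq windows. With 8 windows and so low a share, this 0 does not set the genes apart from the background. Its half-site, TGACG on either strand, was in 3 of the 8, against 20.8% of all windows. In Ppargc1a it reads CGTCA at bases -49 to -45 from the start, in Pde4b CGTCA at -34 to -30 from the start at 102421555, and in Creb3l3 TGACG at -239 to -235 from the start at 81092591. The half-site is part of the full element, and neither table uses those Pde4b and Creb3l3 starts or the start of Ppargc1a at 51567725. The E-box CACGTG, a core clock motif, was in 0 of the 8 (7.15% of all).

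Values are FPKM, read counts divided by the length of the gene's exons or introns and by the size of the library. Exons of total RNA stand mostly for mature messenger RNA and introns of nuclear RNA for unspliced transcripts. Library depth, read back from the steps between low values, ran from 9.91 to 28.94 M reads. Nono exons in total RNA were at 8.74 to 10.7 FPKM in wild type and at 0 to 0.0910 FPKM in Nono-/-, so every library matched its label. The hepatocyte markers Alb, Ttr and Cps1 were high in every library, with 1171 FPKM or more of Cps1 exons in Nono-/- and 974 FPKM or more in wild-type total RNA. The intron share of reads was 22.1% ± 1.72 (SD, n = 12) in wild-type and 18.5% ± 2.41 in Nono-/- total RNA, and 73.2% ± 2.14 and 74.6% ± 1.16 in nuclear RNA. Of the nuclear libraries, Nono-/- at ZT2 and wild type at ZT22 were least like their groups (median Spearman correlations of 0.860 and 0.880), and of the total libraries Nono-/- at ZT10 and wild type at ZT8 (0.946 and 0.947). Of 12 Kupffer cell markers 5 were higher in Nono-/- total RNA exons, 0 were lower and 7 did not pass, where 11.1% of all genes passed. In bulk tissue, more cells of a type and more RNA per cell cannot be told apart.

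Creb3l3 and Gcgr were the most abundant members in mature RNA, and Crtc2 and Ppargc1a the least abundant. Exon levels in wild-type total RNA were 58.3 ± 10.7 FPKM (SD, n = 12) for Creb3l3, 41.3 ± 9.93 for Gcgr, 10.8 ± 2.45 for Crem and 4.81 ± 1.28 for Pde4b. They were 2.92 ± 1.05 for Sik1, 1.64 ± 0.265 for Ppargc1a and 1.61 ± 0.459 for Crtc2. The ranges of Gcgr and Crem did not overlap (21.9 to 56.5 and 7.80 to 16.4 FPKM), nor did those of Crem and Pde4b (3.31 to 6.94 FPKM). Every other pair of neighbours in this order overlapped over the day. The order was the same in Nono-/- total RNA, from 60.6 ± 9.42 FPKM for Creb3l3 to 1.27 ± 0.442 for Crtc2.

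The order of the nuclear introns differed from that of the total RNA exons, with Gcgr highest and Ppargc1a lowest. Nuclear exons of wild type also had Gcgr highest (33.4 ± 13.0 FPKM, against 19.9 ± 4.65 for Creb3l3). Wild-type nuclear intron levels were 7.69 ± 1.60 FPKM for Gcgr, 5.12 ± 1.02 for Creb3l3, 2.84 ± 0.789 for Crem and 1.91 ± 0.608 for Pde4b (n = 12 each). Crtc2 had 1.30 ± 0.274, Sik1 1.17 ± 0.534 and Ppargc1a 1.09 ± 0.335 FPKM. The ratio of nuclear to total exon FPKM separated the members further. Its wild-type median over the 12 pools was 1.42 for Crtc2 and 1.15 for Ppargc1a, against 0.322 for Creb3l3, 0.422 for Crem and 0.455 for Pde4b. Sik1 and Gcgr lay between at 0.640 and 0.759. Crtc2 and Ppargc1a, the coactivators, thus had the highest nuclear to total ratios of the 7, though the ranges of Ppargc1a (0.893 to 2.14) and Gcgr (0.573 to 1.13) overlapped.

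**Figure D1:**
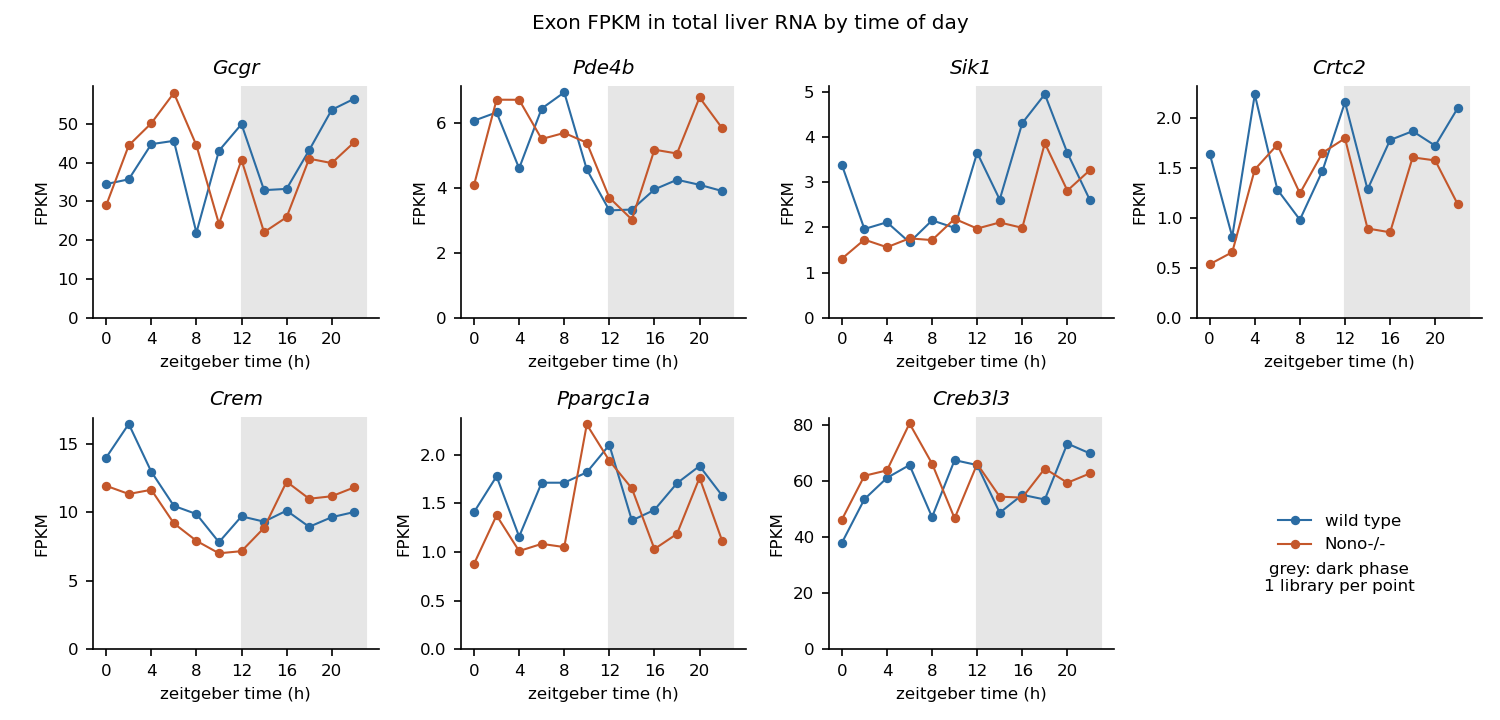
Exon FPKM in total RNA (vertical axis, from 0) against zeitgeber time in h (horizontal axis) for the 7 genes, with 1 point per library, wild type in blue, Nono-/- in orange and the dark phase in grey. Sik1 peaks at ZT18 in both genotypes, at 4.96 FPKM in wild type and 3.87 in Nono-/-, and Crem is highest at ZT2 in wild type (16.4 FPKM).

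Mature Sik1 RNA, which encodes the kinase that shuts CRTC2 out of the nucleus, was lower in Nono-/- livers, while its unspliced RNA was higher. Its exons in total RNA ranged from 1.67 FPKM at ZT6 over a median of 2.61 to 4.96 at ZT18 in wild type, and from 1.31 at ZT0 over 1.98 to 3.87 at ZT18 in Nono-/-. The ranges overlapped, and Nono-/- was the higher genotype at 3 of 12 times. The fitted difference over the day was -0.41 ± 0.12 (log2 ± SE, Nono-/- minus wild type, limma adjusted p = 0.0370), a 1.33-fold lower level. The introns of the same total RNA ran from 0.112 at ZT6 over 0.307 to 0.704 FPKM at ZT0 in wild type and from 0.190 at ZT22 over 0.467 to 0.831 at ZT10 in Nono-/-. Here Nono-/- was higher, by 0.83 ± 0.20 (adjusted p = 0.0111, at 10 of 12 times after scaling and 8 of 12 in the FPKM as deposited). These intron values rest on 15 to 100 reads per wild-type library and 18 to 131 per Nono-/- library. The rise did not pass with the intron share of reads as a covariate (1.20, adjusted p = 0.0643).

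Nuclear RNA gave the same direction for unspliced Sik1. Nuclear introns were lowest at ZT6 (0.203 FPKM), had a median of 1.04 and were highest at ZT0 (2.08) in wild type. In Nono-/- they ran from 0.942 at ZT22 over 1.99 to 3.80 FPKM at ZT10, and at ZT6, where wild type was lowest, Nono-/- had 2.52 FPKM. The difference was 0.92 ± 0.27 (limma adjusted p = 0.0227), 1.89-fold, with Nono-/- higher at 9 of 12 times. Nuclear Sik1 exons ran from 0.709 at ZT6 over 1.89 to 3.67 FPKM at ZT12 in wild type and from 1.39 at ZT2 over 2.44 to 3.76 at ZT12 in Nono-/-. They were higher by 0.53 ± 0.19 (adjusted p = 0.0381), with overlapping ranges, and this call was lost without scaling (0.33, adjusted p = 0.153), with the intron share of reads as a covariate (0.41, 0.193), without the least similar libraries (0.48, 0.0928), with no filter on low values (0.0633) and without any 1 of 7 time points (ZT4, ZT6, ZT10, ZT16, ZT18, ZT20, ZT22, up to 0.11). The lower mature level lost its call with the time point as a block (adjusted p = 0.0538), with the intron share of reads as a covariate (-0.14, adjusted p = 0.721) and without any 1 of ZT0, ZT2, ZT4, ZT8, ZT12, ZT14 or ZT16 (up to 0.106). The nuclear intron rise lost it without ZT16 or ZT20 (up to 0.0627), without the least similar libraries (0.0537) and with the covariate (0.0748).

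Ratios taken within a pool or a library set both sides of Sik1 against each other. The nuclear to total ratio of its exons ran from 0.425 at ZT6 over 0.640 to 1.07 at ZT2 in wild type, and from 0.532 at ZT22 over 1.22 to 1.90 at ZT12 in Nono-/-. It was higher in Nono-/- at 9 of 12 times in the FPKM as deposited and at 12 of 12 after scaling. The fitted rise was 0.94 ± 0.16 (limma adjusted p = 0.00264, 1.92-fold), and 0.72 without scaling (adjusted p = 0.0120). Within total RNA the exon to intron ratio of Sik1 ran from 4.81 at ZT0 over 10.4 to 20.1 at ZT20 in wild type and from 2.14 at ZT6 over 4.0 to 17.2 at ZT22 in Nono-/-. It was lower in Nono-/- at every time but ZT22, with a difference of -1.24 ± 0.19 (adjusted p = 0.000659, 2.36-fold lower), and -0.99 without scaling (adjusted p = 0.00480). This comparison was added after the Sik1 values had been seen. Both ratios kept adjusted p under 0.05 under every alternative run and without any 1 time point (at most 0.0102 and 0.00392 without a time point). The intron share of reads as a covariate was not run for ratios, so their dependence on it is not known.

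**Figure D2:**
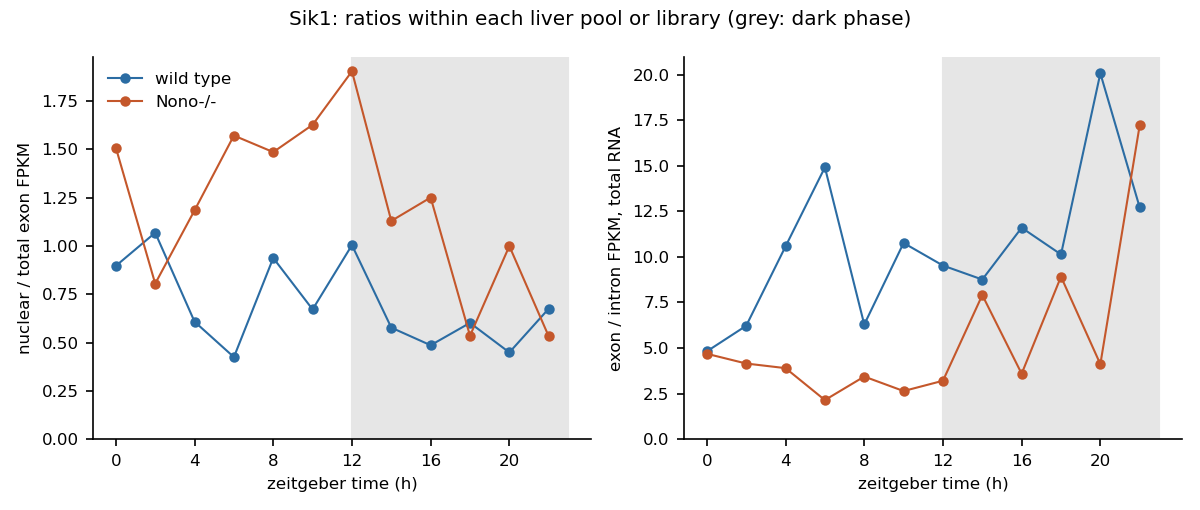
Sik1 against zeitgeber time in h, with wild type in blue, Nono-/- in orange and the dark phase in grey. Left, nuclear exon FPKM over total exon FPKM of the same pool; right, exon FPKM over intron FPKM of the same total RNA library, both from 0. Nono-/- lies above wild type at 9 of 12 times on the left and below it at 11 of 12 on the right.

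Pde4b, whose product hydrolyses cAMP, had more unspliced and more nuclear RNA in Nono-/-, and no difference past the threshold in mature RNA. Its nuclear introns ran from 1.08 FPKM at ZT12 over a median of 1.95 to 2.89 at ZT0 in wild type and from 1.53 at ZT14 over 3.19 to 4.92 at ZT6 in Nono-/-. The ranges overlapped, yet Nono-/- was higher at 12 of 12 times. The difference was 0.73 ± 0.15 (limma adjusted p = 0.00415, 1.65-fold), and it held under every alternative run and without any 1 time point. Nuclear exons rose by 0.53 ± 0.15 (adjusted p = 0.0117, at 10 of 12 times; 0.37 and adjusted p = 0.104 with the intron share as a covariate). Total RNA introns rose by 0.48 ± 0.15 (adjusted p = 0.0327), a call lost without scaling (0.24, adjusted p = 0.292) and without any 1 of 7 time points (ZT4, ZT6, ZT10, ZT12, ZT18, ZT20, ZT22). The nuclear to total ratio of its exons ran from 0.227 over 0.455 to 0.690 in wild type and from 0.393 over 0.505 to 0.659 in Nono-/-, which was the higher genotype at 8 of 12 times as deposited and 9 of 12 after scaling. It rose by 0.40 ± 0.11 (adjusted p = 0.0188), a call lost without ZT6 or ZT22 (up to 0.0571), with the time point as a block (0.0738) and without scaling (0.18, adjusted p = 0.169). Mature Pde4b ran from 3.31 to 6.94 FPKM in wild type and from 3.02 to 6.79 in Nono-/- (0.12, 95% interval -0.13 to 0.37, adjusted p = 0.571).

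PDE4B is also known from immune cells, so the Kupffer cell markers are given beside it. In nuclear introns, where 17.9% of all genes passed, 4 of the 12 markers were higher in Nono-/- (Adgre1, Cd5l, Timd4 and Vsig4) and 0 lower. Their summed level (scaled FPKM) ran from 4.25 over a median of 8.48 to 11.5 FPKM in wild type and from 6.23 over 9.28 to 14.0 in Nono-/-. The defining markers Clec4f, Timd4 and Vsig4 were at 0 in none of the 48 libraries. Of 10 lymphocyte markers 4 passed the level filter in nuclear introns, of which 0 passed in limma (1 at an unadjusted p under 0.05), with a median of -0.01. In nuclear exons 1 passed the filter, the pan-leukocyte gene Ptprc, which rose by 0.43 on the log2 scale and is named here after its value was seen. The part of these cells in the Pde4b values was not tested.

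Gcgr, the glucagon receptor, and Creb3l3 were lower in Nono-/- nuclei, with no difference past the threshold in total RNA. Gcgr exons in nuclear RNA ran from 16.2 FPKM at ZT8 over a median of 32.9 to 63.9 at ZT22 in wild type and from 6.58 at ZT2 over 19.0 to 29.4 at ZT14 in Nono-/-. Nono-/- was the higher genotype at 2 of 12 times as deposited and at 3 of 12 after scaling, with overlapping ranges. Gcgr fell by 0.67 ± 0.16 on the log2 scale (limma adjusted p = 0.00555, 1.60-fold lower). Nuclear Gcgr introns were 7.69 ± 1.60 FPKM in wild type and 5.46 ± 1.68 in Nono-/- (n = 12 each), a difference of -0.51 ± 0.14 (adjusted p = 0.0169). That call was lost without ZT6 or ZT18 (up to 0.0583), without the least similar libraries (0.0531) and with the intron share of reads as a covariate (0.0938). In total RNA exons Gcgr had 41.3 ± 9.93 and 38.8 ± 11.2 FPKM (-0.13, 95% interval -0.39 to 0.13, adjusted p = 0.552).

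Creb3l3 followed the same course. Its nuclear exons ran from 12.1 FPKM at ZT0 over 19.0 to 26.9 at ZT12 in wild type and from 5.89 at ZT2 over 12.7 to 21.9 at ZT14 in Nono-/-. They fell by 0.39 ± 0.10 on the log2 scale (limma adjusted p = 0.00582), and nuclear introns by 0.31 ± 0.09 (adjusted p = 0.0283). The intron call was lost without any 1 of ZT2, ZT6, ZT10, ZT16, ZT18 or ZT22 (up to 0.0817), without the least similar libraries (0.0797) and with the covariate (-0.16, adjusted p = 0.185). The exon falls of both genes held without each time point and under every alternative run. Both genes had their lowest value in the least similar library, Nono-/- nuclei at ZT2, and without the least similar libraries the falls were -0.57 for Gcgr and -0.33 for Creb3l3 (adjusted p = 0.0221 and 0.0227). Total RNA exons of Creb3l3 were 58.3 ± 10.7 FPKM in wild type and 60.6 ± 9.42 in Nono-/- (0.04, 95% interval -0.13 to 0.21, adjusted p = 0.801).

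The nuclear to total exon ratio of Creb3l3 was nearly constant in wild type, from 0.307 over 0.322 to 0.409, and spread from 0.0951 at ZT2 over 0.220 to 0.401 at ZT14 in Nono-/-. It was lower in Nono-/- at 11 of 12 times, by -0.43 ± 0.10 (limma adjusted p = 0.0112). For Gcgr the ratio ran from 0.573 to 1.13 in wild type and from 0.148 at ZT2 to 1.34 at ZT14 in Nono-/- (-0.54 ± 0.19, adjusted p = 0.0442), so Nono-/- pools held both its lowest and its highest value. As deposited it was higher in Nono-/- at 4 of 12 times (0.783 at ZT0, 0.925 at ZT10, 1.34 at ZT14 and 1.10 at ZT16). The scaling factor of Nono-/- nuclear exons was 0.682 at ZT2 and 1.12 at ZT14, and its part in this spread was not tested. The Gcgr call was lost with the time point as a block (adjusted p = 0.0944), without the least similar pools (0.127) and without any 1 of 8 time points (ZT2, ZT6, ZT8, ZT12, ZT16, ZT18, ZT20, ZT22). Of 8 hepatocyte markers the same ratio was lower in 3 (Apoa1, Hnf4a and Ass1) and higher in 0 (19.8% of all genes passed), with a median of -0.29 against 0.02 over all genes. The part of this shift of hepatocyte RNA in the Gcgr and Creb3l3 values was not tested.

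**Figure D3:**
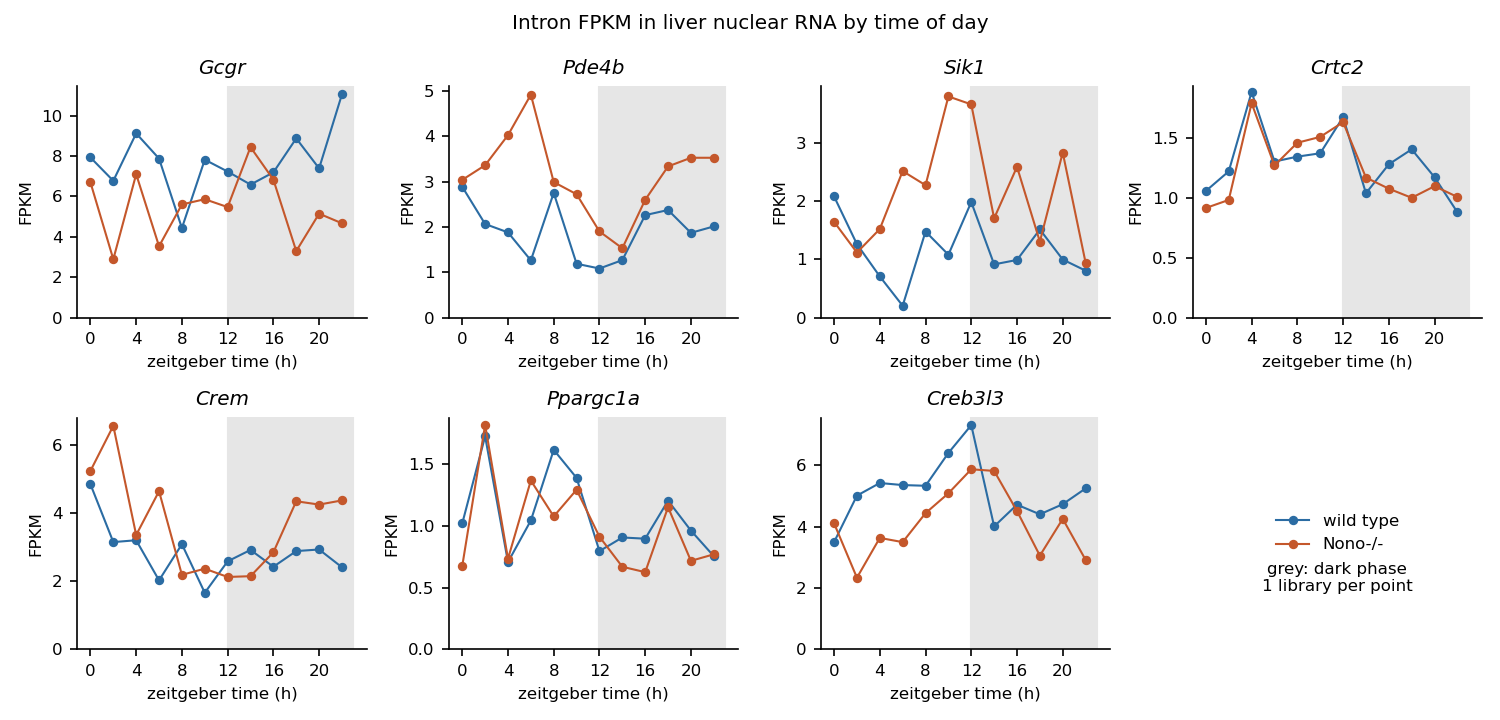
Intron FPKM in nuclear RNA (vertical axis, from 0) against zeitgeber time in h for the 7 genes, with 1 point per library, wild type in blue, Nono-/- in orange and the dark phase in grey. Pde4b is higher in Nono-/- at 12 of 12 times and Sik1 at 9 of 12, and Gcgr and Creb3l3 are lower at 10 of 12.

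The remaining members are regulators of transcription, and none of their genotype differences passed the threshold. Crtc2, the CREB coactivator, had 1.61 ± 0.459 FPKM of exons in wild-type and 1.27 ± 0.442 in Nono-/- total RNA (-0.38 ± 0.17, limma adjusted p = 0.170, lower at 9 of 12 times). Its nuclear introns were 1.30 ± 0.274 and 1.24 ± 0.288 FPKM (-0.05, 95% interval -0.24 to 0.14). Ppargc1a had 1.64 ± 0.265 and 1.37 ± 0.449 FPKM of mature RNA (-0.30 ± 0.13, adjusted p = 0.148). The 10 times at which Ppargc1a was lower did not include ZT10, when Nono-/- had 2.31 FPKM, or ZT14 (1.66 against 1.33). Its introns in total RNA were lower at 11 of 12 times (-0.29, adjusted p = 0.143), and passed with the time point as a block (adjusted p = 0.0391) and without scaling (-0.49, adjusted p = 0.0151). Nuclear Crtc2 exons (-0.24, adjusted p = 0.200) also passed with the block (0.0301). Crem, which gives rise to activators and to the repressor ICER, had 10.8 ± 2.45 and 10.1 ± 1.95 FPKM of mature RNA (-0.11, 95% interval -0.29 to 0.07). Its nuclear introns were 2.84 ± 0.789 and 3.71 ± 1.43 FPKM (0.35 ± 0.14, adjusted p = 0.0846, higher at 9 of 12 times). Gene-level values do not separate ICER from the other Crem transcripts.

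**Figure D4:**
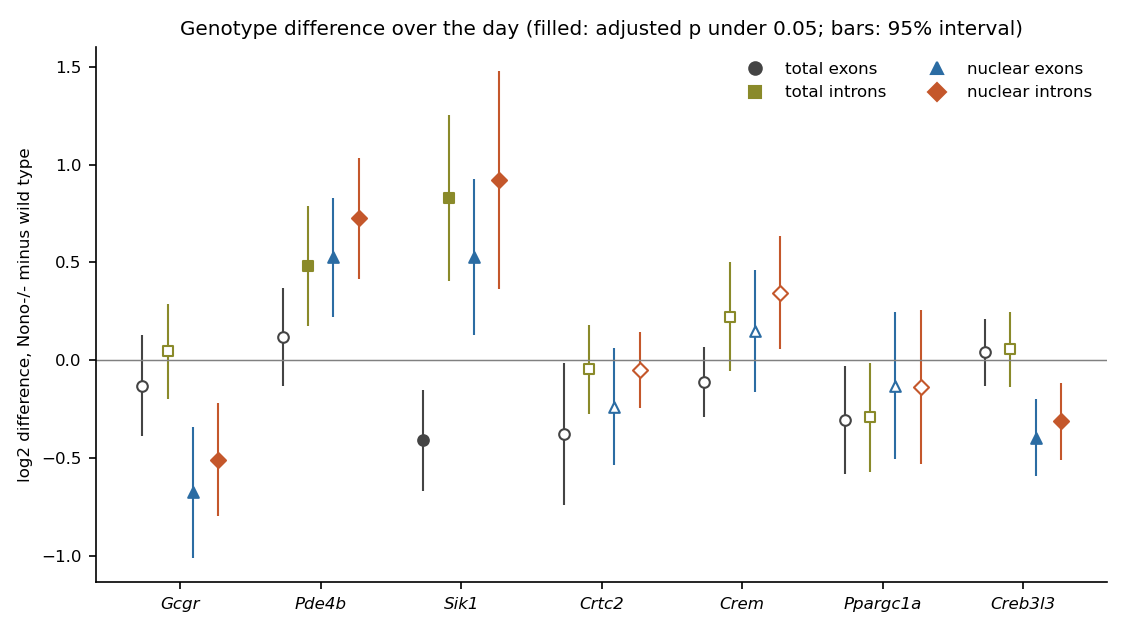
Fitted difference between the genotypes over the day (vertical axis, log2 of FPKM, Nono-/- minus wild type) for each gene (horizontal axis) in the exons and introns of total and nuclear RNA. Bars are 95% intervals from limma with 24 libraries per fit, and filled symbols mark adjusted p under 0.05. Sik1 stands at -0.41 in total exons and at 0.83 and 0.92 in total and nuclear introns, and Gcgr and Creb3l3 lie below 0 in both nuclear measures.

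The members' calls are set here beside the share of all genes called in the same fit. In total RNA exons 1 of 7 members passed, against 11.1% of all genes tested, and in total RNA introns 2 of 7, against 16%. In nuclear exons 4 of 7 passed, against 34.3%, and in nuclear introns 4 of 7, against 17.9%. For the nuclear to total ratio 4 of 7 passed, against 19.8%, and for the exon to intron ratio 1 of 7, against 7.06%. With 7 members a single call moves these shares widely, and a count of 1 of 7 is near the background. The median difference of the 7 members was -0.13, 0.06, -0.13 and -0.05 in total exons, total introns, nuclear exons and nuclear introns, with all genes at 0.00, 0.01, 0.00 and 0.00. Over all genes 510 rose and 746 fell in total exons, 670 and 836 in total introns, 1665 and 1938 in nuclear exons, 1066 and 888 in the nuclear to total ratio and 271 and 357 in the exon to intron ratio. Without scaling these became 762 and 539, 102 and 3444, 380 and 3398, 187 and 2386, and 2261 and 49. The median gene then stood at -0.21 in total introns, -0.20 in nuclear exons, -0.21 in the nuclear to total ratio and 0.21 in the exon to intron ratio, so changes here are relative to the median gene.

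Over the day, Sik1 and Crem were the members with a daily rhythm of mature RNA in both genotypes. In wild-type total RNA exons 3 of 7 members had a 24 h rhythm, against 31.8% of all genes. Sik1 peaked at ZT17.7, in the dark feeding phase, with a peak-to-trough fold of 2.16 (limma adjusted p = 0.00628). Crem peaked at ZT1.86 with a fold of 1.54 (adjusted p = 0.0246), and Pde4b at ZT4.07 with a fold of 1.73 (adjusted p = 0.0433). In Nono-/- 2 of 7 passed, near the 29.6% of all genes. These were Sik1, with a peak at ZT17.5 and a fold of 1.81 (adjusted p = 0.0355), and Crem, with a peak at ZT21.8 and a fold of 1.61 (adjusted p = 0.0158). The wild-type Crem rhythm was lost without ZT0 or ZT2 (up to 0.138), its 3 highest libraries being ZT2 (16.4 FPKM), ZT0 (14.0) and ZT4 (12.9), and the Nono-/- one without ZT12 (0.0510). The wild-type Pde4b call was lost without any 1 of 9 time points and the Nono-/- Sik1 call without any 1 of 6. With no filter on low values both were lost (adjusted p = 0.0739 and 0.0638), as with added 12 h terms (0.157 and 0.0726). Pde4b also lost its call without the least similar libraries (0.0584), and Nono-/- Sik1 without scaling (0.0538).

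Gcgr, Creb3l3, Crtc2 and Ppargc1a showed no rhythm of mature RNA past the threshold in either genotype, with fitted folds from 1.07 to 1.37 in wild type and from 1.10 to 1.60 in Nono-/-. The lowest adjusted p among these was 0.120, for Gcgr in Nono-/- with a fitted peak at ZT2.93. Their libraries still varied, since Gcgr differed 2.58-fold between its lowest (ZT8) and highest (ZT22) wild-type library.

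In nuclear introns 0 of 7 members were rhythmic in wild type, against 21.0% of all genes, with 0 of the 7 under an adjusted p of 0.05 in limma and 1, Creb3l3, at an unadjusted p of 0.0474. In Nono-/- 4 of 7 passed, against 32.0%. Crem peaked at ZT23.9 with a fold of 2.67 (limma adjusted p = 0.00332), from 2.12 FPKM at ZT12 to 6.57 at ZT2. Creb3l3 peaked at ZT12.3 with a fold of 1.69 (adjusted p = 0.0160), Crtc2 at ZT8.38 with 1.55 (0.0374) and Pde4b at ZT1.82 with 1.97 (0.0433). The Crem rhythm held without each time point, whereas the calls of Creb3l3, Crtc2 and Pde4b were lost without any 1 of 1, 7 and 9 time points. Without ZT8, Pde4b passed in wild type as well (adjusted p = 0.0323).

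The difference in rhythm between the genotypes was tested directly, and the calls above in one genotype and not in the other are not shown to differ. In total RNA exons 0 genes passed (0% of those tested, limma), with 1210 at an unadjusted p under 0.05. Crem was the member with the smallest unadjusted p (0.0429, adjusted p = 0.463), with fitted peaks at ZT1.86 and ZT21.8. In nuclear introns 0 genes passed (0%), with 811 at an unadjusted p under 0.05, and the adjusted p of the members ran from 0.738 to 0.947.

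Upstream of CREB, the shares of listed genes called lay near those of all genes, 11.1% in total exons and 17.9% in nuclear introns. The gene lists used here are counted beside these shares, and no list was tested as a whole. The calls in mature RNA were 2 adenylyl cyclases, 2 kinase anchors and 1 phosphodiesterase, all lower. Of 13 measured receptors, G proteins and adenylyl cyclases 2 fell, both cyclases that make cAMP, Adcy6 (-0.43 ± 0.13, limma adjusted p = 0.0414) and Adcy9 (-0.26 ± 0.07, adjusted p = 0.0265). Of 15 protein kinase A subunits and anchors 2 fell, the anchors Akap13 (-0.38 ± 0.06, adjusted p = 0.00122) and Akap1 (-0.28 ± 0.09, adjusted p = 0.0347). Of 8 further phosphodiesterases Pde8a fell, by 0.33 ± 0.07 (adjusted p = 0.00642). In nuclear introns 1 of 12, 2 of 14 and 3 of 12 genes of these lists passed. Gna11, a G protein subunit, fell (-0.62 ± 0.15), the kinase subunit gene Prkacb rose (0.22 ± 0.05) and the anchor Akap2 fell (-0.17 ± 0.06). Of the phosphodiesterases Pde1b rose (0.49 ± 0.10), and Pde2a (-0.31 ± 0.09) and Pde8a (-0.20 ± 0.06) fell.

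Crebbp and Ep300, related coactivators that phosphorylated CREB recruits, were lower in mature RNA. Of 10 measured CREB family genes and coactivators 3 were lower in mature RNA and none higher (11.1% of all genes passed), with a median of -0.28. Crebbp, the histone acetyltransferase CBP, went from 5.04 ± 1.0 to 3.49 ± 0.842 FPKM (n = 12 each, -0.55 ± 0.10, limma adjusted p = 0.00250), its relative Ep300 stood at -0.43 ± 0.08 (adjusted p = 0.00325) and Creb3l2 at -0.42 ± 0.10 (adjusted p = 0.0138). Of 9 genes around the salt-inducible kinases Sik2 fell, by 0.31 ± 0.08 (adjusted p = 0.0159), in the same direction as Sik1. In nuclear introns 0 of 13 CREB family genes fell and Crebzf rose (0.25 ± 0.08, adjusted p = 0.0333), and of 10 genes of the kinase list Stk11, which encodes the upstream kinase LKB1, and Hdac7 fell (-0.53 ± 0.10 and -0.34 ± 0.09). With the intron share of reads as a covariate 23 of all genes passed in total RNA exons, in place of 1256, and 26 in total RNA introns, in place of 1506.

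Downstream, among the CREB target genes of fasting, unspliced G6pc, Nr4a1, Dusp1 and Igfbp1 rose in nuclear RNA, and Lpin1, Per1 and Klf15 fell. Of 20 measured in total RNA exons, the clock gene Per1 fell (-0.93 ± 0.23, limma adjusted p = 0.0129) and 18 did not pass. The remaining one, Fos, stood at 0.393 ± 0.245 FPKM in wild type and 0.848 ± 0.589 in Nono-/- (n = 12 each). Fos reached the level filter only through Nono-/-, here and in nuclear introns, where its means were 0.0884 and 0.207 FPKM, and its calls there are not counted as support. In nuclear introns 5 of 20 passed as higher with Fos included and 3 fell (17.9% of all genes passed). Those that fell were Lpin1 (-1.65 ± 0.39), Per1 (-0.87 ± 0.27) and Klf15, the latter named after its value was seen. The median was 0.35, against 0.00 over all genes. In nuclear exons 4 of 16 rose and 5 fell (34.3% of all genes passed), with a median of -0.10. G6pc, the last enzyme of glucose production, had 31.4 ± 13.5 FPKM of nuclear introns in wild type and 56.0 ± 18.7 in Nono-/- (n = 12 each). It rose by 0.88 ± 0.23 (adjusted p = 0.0141) at 12 of 12 times. Mature G6pc was 195 ± 91.3 and 143 ± 69.1 FPKM, lower at 11 of 12 times (-0.52 ± 0.23, adjusted p = 0.154). Nr4a1, an orphan nuclear receptor of the early cAMP response, rose in nuclear introns by 1.18 ± 0.24 (adjusted p = 0.00360), and its exons were below the level filter.

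Pck1, the enzyme that commits carbon to glucose production, stood at -0.26 ± 0.22 in mature RNA (468 ± 197 and 400 ± 163 FPKM) and at 0.25 ± 0.28 in nuclear introns, with adjusted p of 0.488 and 0.558 by limma. Irs2, an insulin receptor substrate that CREB induces, had 0.991 ± 0.378 and 0.721 ± 0.442 FPKM of mature RNA (-0.55 ± 0.22, adjusted p = 0.112). For the exon to intron ratio of total RNA 6 of 16 targets were lower and 0 higher (7.06% of all genes passed), with a median of -0.39 against -0.03 over all genes. These were G6pc (-1.19 ± 0.19, adjusted p = 0.000859), Pck1 (-0.65 ± 0.14, adjusted p = 0.0105), Igfbp1, Ppp1r3c, Tat and Dusp1, the latter 4 named after their values were seen. Without scaling the split was 2 lower and 3 higher, with a median of -0.14 against 0.21 over all genes.

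Among targets of CREB3L3 and partners or targets of PGC-1alpha, Ppara, Foxo1 and Hnf4a were lower in mature RNA. Counts for the CREB3L3 list lie near or below the background shares of 11.1% in total exons and 17.9% in nuclear introns. Of 12 measured targets of CREB3L3 in total RNA exons Ppara, the fatty acid receptor of the liver, fell (-0.29 ± 0.08, limma adjusted p = 0.0207) and 11 did not pass. In nuclear introns the acute-phase gene Crp rose (0.46 ± 0.14) and the lipid droplet gene Cidec fell (-0.42 ± 0.09), and 10 of 12 did not pass. Of 12 partners and targets of PGC-1alpha 3 fell in total RNA exons, Foxo1 (-0.46 ± 0.10, adjusted p = 0.00866), Ppara and Hnf4a (-0.23 ± 0.07, adjusted p = 0.0300). In nuclear introns Hnf4a fell at 12 of 12 times (-0.60 ± 0.11, adjusted p = 0.00231), Kat2a fell (-0.40 ± 0.11) and Sirt1, a deacetylase of PGC-1alpha, rose (0.29 ± 0.09).

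The genes most like each member over the 24 total RNA libraries were named by Pearson correlation of scaled log2 exon FPKM, with no test, and libraries share depth and composition effects. For Gcgr these were Bckdha, of branched-chain amino acid breakdown, Ctnnbl1 and F12 (0.96 each). Crtc2 was most like Hdac4 (0.94), a histone deacetylase that SIK kinases also phosphorylate, then Dsp and Srcap (0.90 each), and Sik1 like Klf3 (0.86), Dopey2 (0.86) and Arhgap35 (0.85). Creb3l3 was most like Daglb (0.85), Mlycd (0.81), a malonyl-CoA decarboxylase, and Coasy (0.80). The highest values for Pde4b (Serpina1a), Crem (2210417A02Rik) and Ppargc1a (4930414N06Rik) were 0.80 each, followed by Gpsm2 and Ccdc66, Tra2a and Snora20, and Jmy and D2hgdh.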

How the data were processed

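Livers of wild-type and Nono-/- mice gave total and nuclear RNA libraries (stranded, ribosomal RNA depleted, per the labels' protocols). FastQC 0.11.2, STAR 2.4.0k and the build mm10 are named in the submitters' processing notes. The authors counted reads over exons and over introns with HOMER's analyzeRepeats.pl, with 1 transcript model kept per gene, and deposited FPKM, per the file headers. The version of HOMER is not stated there, no strand option stands in the headers, so antisense reads may be included, and the headers of the ZT14 to ZT22 columns carry the word fed.

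FPKM were scaled by median ratios, transformed as log2 of FPKM plus 0.1 (exons) or 0.05 (introns), so that changes of low genes are understated, and kept at a mean of at least 0.5 or 0.1 FPKM. limma 3.58.1 (R 4.3.3, with trend) fitted genotype, 24 h cosine and sine terms and their interaction to 24 libraries per fraction. Ratios were fitted as log2 differences of the scaled, transformed values, nuclear minus total within a pool or exons minus introns within a library. p-values were two-sided and adjusted over all genes tested (Benjamini-Hochberg, threshold 0.05). With 1 library per genotype, time and fraction, the error term is the scatter of pools about the fitted daily curve, which mixes mouse-to-mouse and technical spread, and intervals are 95% from the fit. The scripts were tested on simulated data. Python 3.11.15, numpy 2.4.6, pandas 2.3.3 and matplotlib 3.10.9 were used.

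The members and gene lists were chosen with earlier results of these data known. Named were all members, the 4 genes per list with the largest change past the threshold in total exons and in nuclear introns, Pck1, G6pc, Per1, Nr4a1 and Irs2, and the 3 genes most correlated with each member. Deviations from the group means correlated between genotypes at the same time (0.144 to 0.563 in total RNA exons, over 0.1 at 12 of 12 times there and in both intron tables, and at 11 of 12 in nuclear exons), so the time point served as a block in one alternative. The others were a pseudocount 10 times larger, no filter, a filter 4 times stricter, FPKM without scaling, added 12 h terms, the intron share of reads as a covariate, each time point left out and, chosen after seeing the data, the least similar library of each group left out. A count model was not used because the unit is FPKM. Sequences are from RefSeq.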

Additional observations from a re-analysis of the deposited data

Results flagged for a closer look

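The genotype effect on 4 genes differed between nuclear and total RNA of the same pools, by limma on the within-pool ratio of exon FPKM with adjustment over all genes. For Sik1 the effect was larger in nuclear RNA by 0.94 (log2, Nono-/- minus wild type, nuclear minus total, adjusted p = 0.00264), with 12 of 12 scaled pool pairs in that direction. For Pde4b it was larger by 0.40 (adjusted p = 0.0188, 9 of 12). For Creb3l3 the value was -0.43 (adjusted p = 0.0112, 11 of 12 lower) and for Gcgr -0.54 (adjusted p = 0.0442, 9 of 12 lower). The values for Sik1 and Creb3l3 held under every alternative run, and those for Pde4b and Gcgr did not. The intron share of reads as a covariate was not among the alternatives run for this ratio.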

How the results depend on the processing

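Of 1567 values of the 7 genes under alternatives, 1419 kept their direction and side of the threshold, 112 lost a call, 14 gained one and 22 changed sign. With no filter on low values 0 members were called in total exons, 1 in total introns, 1 for the Nono-/- rhythm of total exons and 2 for that of nuclear introns. With a filter 4 times stricter the genes called were 755 in total introns, 1881 in nuclear exons and 1247 for the nuclear to total ratio, and 3 members were called for the exon to intron ratio. Without scaling 3546 genes were called in total introns and 2310 for the exon to intron ratio, 2 members for that ratio (Sik1, and Creb3l3 at 0.26) and 1 for the Nono-/- rhythm of total exons. Signs that changed without scaling were those of Gcgr (-0.21), Crem (-0.022) and Creb3l3 (-0.20) in total introns, Crem (-0.057) in nuclear exons, Crtc2 (-0.078) and Ppargc1a (-0.048) for the nuclear to total ratio, and Gcgr (0.10), Ppargc1a (0.21) and Creb3l3 (0.26) for the exon to intron ratio.

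With the intron share of reads as a covariate, which was not run for ratios, 0 members and 23 genes were called in total exons, 1 and 26 in total introns, 2 and 1048 in nuclear exons and 1 and 965 in nuclear introns. Signs changed there for Creb3l3 (-0.061) in total exons, Gcgr (-0.27), Crtc2 (0.15) and Creb3l3 (-0.10) in total introns and Crem (-0.066) in nuclear exons. With 24 h and 12 h terms 2119 genes were rhythmic in wild-type total exons, 1219 and 1892 in wild-type and Nono-/- nuclear introns, and 1 member in each of the 2 Nono-/- fits. Without the least similar library of each group 2168 genes were called in nuclear exons and 755 for the nuclear to total ratio, 1 member in nuclear introns, 2 for the Nono-/- rhythm of nuclear introns and 3 for the exon to intron ratio. The cause was not tested in any of these cases.

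With the time point as a replicate block, 0 members were called in total exons (Sik1, adjusted p = 0.0538), and 2 members and 1171 genes for the nuclear to total ratio (Gcgr at 0.0944, Pde4b at 0.0738). Ppargc1a in total introns and Crtc2 in nuclear exons passed with this block, and it changed no other call of a member. Rhythms have no blocked fit, since time is the block.

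Leaving out each time point in turn gave 734 to 1300 genes and 0 to 1 members in total exons, 770 to 1846 and 1 to 2 in total introns, 2158 to 4569 genes in nuclear exons, 1124 to 2950 and 2 to 5 in nuclear introns, 635 to 3435 and 2 to 4 for the nuclear to total ratio and 290 to 702 and 1 to 3 for the exon to intron ratio. For rhythms it gave 1 to 3 members in total exons of either genotype, 1655 to 2498 genes and 0 to 1 members in wild-type nuclear introns, and 2533 to 4534 and 1 to 4 in Nono-/-. Small effects changed sign among these for Crtc2 (-0.10 to 0.019) and Gcgr (-0.032 to 0.13) in total introns and for Creb3l3 (-0.032 to 0.0009) and Ppargc1a (-0.062 to 0.043) in the exon to intron ratio. Low intron counts of Sik1 limit the precision of its total RNA values.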

Other observations

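Within nuclear RNA the ratio of exon to intron FPKM was lower in Nono-/- than in wild type at most times for each of the 7 genes. In the FPKM as deposited it was lower at 12 of 12 times for Sik1, at 11 of 12 for Pde4b, Crem and Creb3l3, at 10 of 12 for Gcgr and Crtc2 and at 8 of 12 for Ppargc1a. For Sik1 it ran from 1.24 over a median of 1.74 to 3.49 in wild type and from 0.939 over 1.16 to 1.85 in Nono-/-. The ranges overlapped. This ratio was looked at after the other values had been seen and was not fitted, and without scaling the median gene stood at -0.20 in nuclear exons and at -0.02 in nuclear introns (log2, Nono-/- minus wild type). How far the 7 genes share this shift was not tested.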
